A study of Mus musculus with 6 samples.

Results

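Wt1, Sox9, Rhox5, Mro and Aard are nuclear regulators and identity genes of the Sertoli cell, the somatic cell of the seminiferous tubule that houses and feeds germ cells. The members were taken by gene symbol from the authors' deposited table of genes that differed between UXT knockout and wild-type cells. All 5 members were found among the 3257 genes analysed. Every gene of the table had been selected on the knockout against wild-type contrast in these same libraries, so the differences below describe the members and carry no p-value. The study sequenced RNA of primary Sertoli cells from C57BL/6 mice, which differential plating had enriched. Wild-type cells infected with an empty plasmid gave 3 libraries. Cells of UXT KO animals gave the other 3 and were infected with a virus carrying Cre recombinase. Both groups were infected for 24 hours on each of 2 occasions.

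UXT, also called ART-27, is a prefoldin-like protein that acts as a cofactor of transcription, and the comparison asks which transcripts differ when it is lost. Uxt was not among the 3257 genes of the table, so the loss of the targeted transcript was not checked. The sources used here give neither the allele nor the age and number of the mice. The viral construct with Cre and the loss of UXT cannot be told apart, since no wild-type library had received Cre. Nor do they say whether replicates were separate animals or cultures, so the spread between replicates may be technical.

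In the embryonic gonad SRY switches on SOX9, an HMG-box transcription factor that starts Sertoli cell differentiation. WT1, a zinc finger transcription factor, is needed for the gonad to form and later for Sertoli cells to keep their fate. RHOX5 is a homeobox protein of the X-linked reproductive homeobox cluster, and its gene responds to androgen in Sertoli cells. Mro, or maestro, is a gene transcribed in the male developing gonad. Aard encodes a protein with an alanine and arginine rich domain, whose function is little known.

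Transcripts of 4 of the members were lower in the knockout and those of Mro were higher. The authors' deposited table listed falls of 5.07-fold for Aard, 4.47-fold for Wt1, 3.25-fold for Rhox5 and 1.81-fold for Sox9. The same authors' deposited table listed a rise of 2.09-fold for Mro. All 5 were called by limma, a linear model fitted over all 3257 genes, at a Benjamini-Hochberg adjusted p under 0.05 and an authors' fold of at least 1.5. That rule called 99.6% of the table, 67.5% as lower and 32.1% as higher, so the count says nothing particular to the members. In Wt1, Sox9, Rhox5 and Aard the values of the groups did not overlap, which held for 97.5% of the table (65.8% with the knockout lower and 31.7% with it higher).

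**Figure D1:**
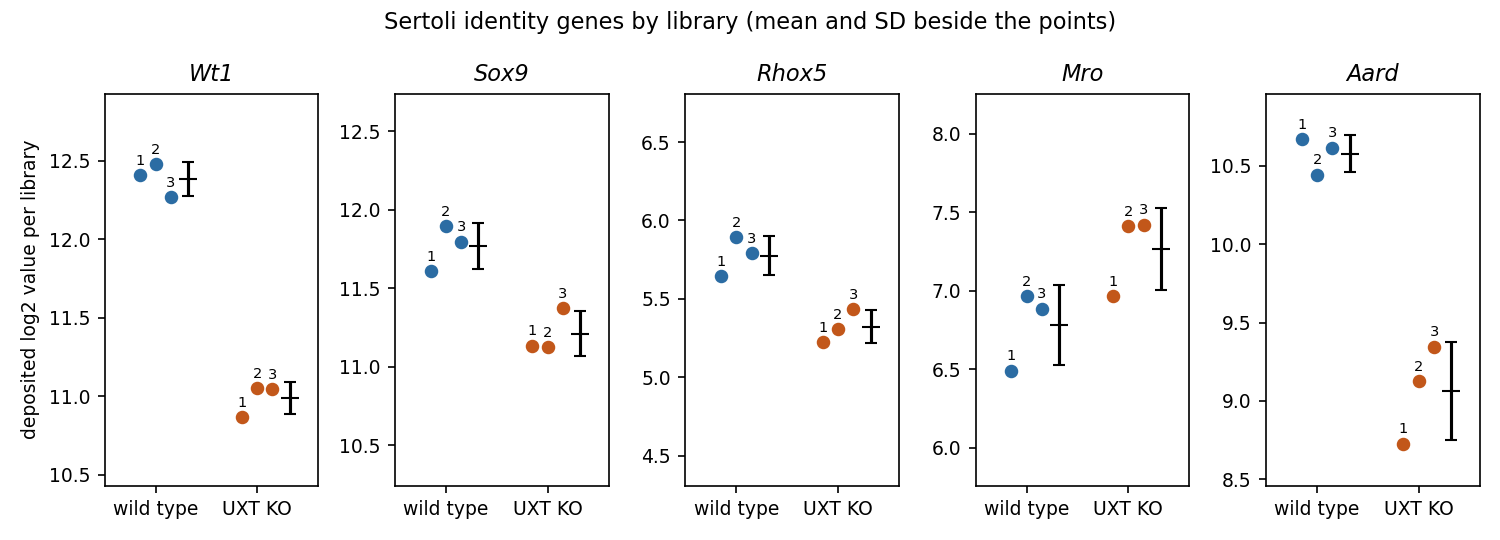
Deposited log2 values of the 5 genes in each library, with the replicate number above each point and the mean and SD (n = 3) as bars. Each vertical axis spans the same log2 range and does not start at 0. The knockout points lie below all wild-type points for Wt1, Sox9, Rhox5 and Aard, while for Mro knockout replicate 1 lies at 6.96, level with wild-type replicate 2.

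Wt1 (gene ID 22431) lies on chromosome 2, from 105126529 to 105173616 on the plus strand in GRCm38, and GENCODE lists 9 transcripts of it. On the deposited log2 scale its level was 12.41, 12.48 and 12.27 in wild-type replicates 1, 2 and 3. In UXT KO replicates 1, 2 and 3 its level was 10.87, 11.05 and 11.05. The highest knockout library thus stood 1.22 below the lowest wild-type library on the log2 scale, against SDs of 0.11 and 0.10 (n = 3 each). The limma difference was -1.40 ± 0.09 (SE) on the scale of the library values. The authors' deposited table gave a log2 fold change of -2.16. Over all analysed genes, the difference between the library values had a median ratio of 0.58 to the log2 fold listed in the authors' deposited table. A larger fall than that of Wt1 was listed for 16.2% of the 2210 lower genes.

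The non-coding gene Wt1os begins 18 bases from the start of Wt1 and is transcribed away from it, on the minus strand of chromosome 2 from 105076538 to 105126510. Its level was 7.21, 7.16 and 6.98 in wild-type replicates 1 to 3 and 6.34, 6.31 and 6.28 in UXT KO replicates 1 to 3 (log2). The authors' deposited table listed a fall of 4.67-fold for Wt1os, beside 4.47-fold for Wt1. The annotated spans of the pair do not overlap, and the use of strand in the authors' counting is not known here. Wt1os was 1 of the 10 genes nearest to Wt1 in RefSeq order, 5 on each side, and no other of them was analysed here.

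Sox9 (gene ID 20682) lies on chromosome 11, from 112782224 to 112787760 on the plus strand in GRCm38, with 1 transcript in GENCODE. Its level was 11.61, 11.90 and 11.80 in wild-type replicates 1 to 3 on the log2 scale. It was 11.13, 11.12 and 11.37 in UXT KO replicates 1 to 3. The groups were separate by 0.23, between wild-type replicate 1 and UXT KO replicate 3. The limma difference was -0.56 ± 0.10 (SE), and the authors' deposited table gave a log2 fold change of -0.85. Of the lower genes, 75.8% had a larger fall than Sox9 in the authors' deposited table. With each library centred on its median over the table, the limma difference of Sox9 was -0.26, and after quantile normalization -0.37. Both scalings used only the table's genes, which were selected as differing and were mostly lower. They can take away part of a real fall and add to a rise, so they do not show which scaling is right.

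The only analysed neighbour of Sox9 was Gm11681, a long non-coding RNA gene that lies 4970 bases past its end, on the minus strand of chromosome 11 from 112792731 to 112799008. Gm11681 was listed with a fall of 4.04-fold in the authors' deposited table. Wt1os was still called lower under both other scalings, and Gm11681 under neither (differences of -0.11 after quantile normalization and -0.01 with median centring).

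Rhox5 (gene ID 18617) lies on chromosome X, from 37804842 to 37808876 on the plus strand in the GENCODE annotation of GRCm38, with 2 transcripts. RefSeq places its start 50.2 kb further upstream, at 37754608. The 250 bases before that RefSeq start (chrX:37754358-37754607, plus strand, GRCm38.p6) are shown because the motifs of the factors described here were searched in them, with the match to the SOX motif AACAAT in capitals.
Rhox5: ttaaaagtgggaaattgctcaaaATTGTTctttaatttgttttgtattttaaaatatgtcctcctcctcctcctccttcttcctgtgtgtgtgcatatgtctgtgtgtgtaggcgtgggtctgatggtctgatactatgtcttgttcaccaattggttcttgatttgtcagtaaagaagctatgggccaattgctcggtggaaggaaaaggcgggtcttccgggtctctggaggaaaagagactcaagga
That match reads AACAAT on the minus strand and begins 227 bases before the start. Of 32851 promoter windows of this length in RefSeq, 9.42% hold it on either strand. A further SOX motif, ACAAAG, gave 0 matches on either strand in this window and is held by 16.5% of the windows. The same was true of the WT1 or EGR motif GGGGGCG (14.8% of the windows) and of its variant GTGGGNG (28.1% of the windows). The GATA motif AGATAA (9.99% of the windows) and the heat shock motif GAANNTTC (6.69% of the windows) also gave 0 matches. The bases before the GENCODE start of Rhox5 were not searched, so these matches do not describe a promoter at that start. Promoters of Wt1, Sox9, Mro and Aard were not used here.

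The level of Rhox5 was 5.64, 5.89 and 5.79 in wild-type replicates 1 to 3 and 5.23, 5.31 and 5.43 in UXT KO replicates 1 to 3 (log2). The groups were separate by 0.21, with SDs of 0.12 and 0.10 (n = 3 each). The limma difference was -0.45 ± 0.09 (SE), only 0.27 of the log2 fold change of -1.70 in the authors' deposited table. For Wt1, Sox9 and Aard the same ratio was 0.65 and for Mro 0.46. Before correction for length, 13.5% of the table had a lower mean value than Rhox5, and over the 25% of genes with the lowest means the median ratio was 0.24. Rhox5 no longer passed limma's threshold when the libraries were scaled otherwise: its difference was -0.07 after quantile normalization and -0.16 with each library centred on its median. As for Sox9, these scalings can take away part of a real fall, so the lost call does not show that Rhox5 was unchanged.

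Rhox8, another homeobox gene of the same X-linked cluster, was the only other gene of 14 fixed Rhox genes that was analysed, and it lies 65.9 kb beyond the end of Rhox5. Its level was 3.47, 3.74 and 3.62 in wild-type replicates 1 to 3 and 3.45, 3.46 and 3.42 in UXT KO replicates 1 to 3 (log2). Wild-type replicate 1 and UXT KO replicate 2 thus nearly met. The authors' deposited table listed a fall of 2.35-fold for Rhox8. Its limma difference of -0.17 was smaller than the 0.30 by which median centring raised the differences of the table's genes, so its direction depends on the scaling. It was not called under either other scaling.

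Aard (gene ID 239435) lies on chromosome 15, from 52040107 to 52045722 on the plus strand in GRCm38, with 1 transcript in GENCODE. Its level was 10.67, 10.44 and 10.62 in wild-type replicates 1 to 3 on the log2 scale. It was 8.73, 9.12 and 9.34 in UXT KO replicates 1 to 3. The knockout libraries differed among themselves more than those of the other members: the SD was 0.31 in knockout and 0.12 in wild-type cells (n = 3 each), and 95.1% of the table had a smaller knockout SD. The gap between the groups, 1.10, was still larger than either SD. The limma difference was -1.51 ± 0.15 (SE), and the authors' deposited table gave a log2 fold change of -2.34. A larger fall was listed for 12.5% of the lower genes. None of the 10 nearest genes of Aard was analysed here.

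Mro (gene ID 71263) lies on chromosome 18, from 73859385 to 73881333 on the plus strand in GRCm38, with 6 transcripts in GENCODE. Its level was 6.49, 6.96 and 6.89 in wild-type replicates 1 to 3 on the log2 scale. It was 6.96, 7.41 and 7.42 in UXT KO replicates 1 to 3. The groups met at 6.96, where UXT KO replicate 1 lay just below wild-type replicate 2. The SDs of 0.25 and 0.26 (n = 3 each) exceeded those of 94.7% and 91.4% of the table in wild-type and knockout cells. The limma difference was 0.49 ± 0.16 (SE), and the authors' deposited table gave a log2 fold change of 1.06. Without wild-type replicate 1, UXT KO replicate 2 or UXT KO replicate 3, Mro no longer passed limma's threshold, at differences of 0.34, 0.41 and 0.41. Its difference was 0.92 after quantile normalization and 0.78 with each library centred on its median, so the size of the rise depended on the scaling.

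**Figure D2:**
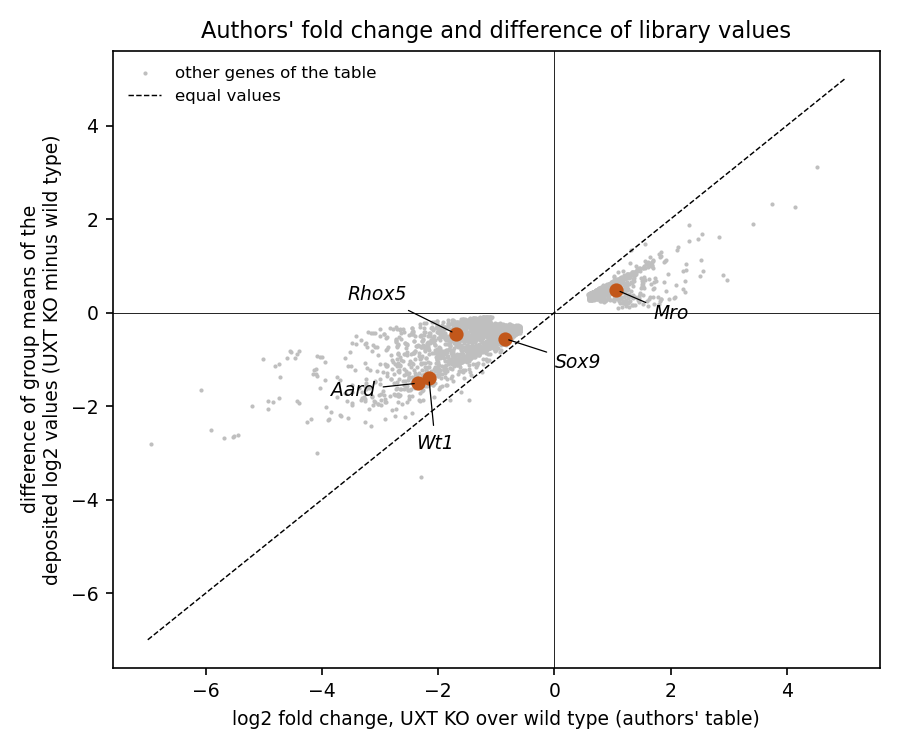
Each point is a gene of the table, with the authors' log2 fold change (knockout over wild type) on the horizontal axis and the difference of the group means of the deposited log2 library values on the vertical axis. The 5 members, in orange, lie nearer to the horizontal line at 0 than the dashed line of equal values does, and Rhox5 keeps the smallest share of its fold change, 0.27.

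The levels of the members were put in order after subtracting the log2 of the exonic length in kb (GENCODE), which approximates a level per kb. In wild-type cells the order was Aard at 10.15 ± 0.12, Wt1 at 9.75 ± 0.11, Sox9 at 9.72 ± 0.15, Rhox5 at 6.18 ± 0.12 and Mro at 4.63 ± 0.25 (log2 per kb, SD, n = 3 each). Wt1 and Sox9 overlapped in that order, and the other neighbours did not. In knockout cells Sox9 came first at 9.16 ± 0.14, before Aard at 8.63 ± 0.31 and Wt1 at 8.36 ± 0.10, which overlapped (log2 per kb, SD, n = 3 each). Rhox5 and Mro followed at 5.73 ± 0.10 and 5.12 ± 0.26, again without overlap (log2 per kb, SD, n = 3 each). The order rests on the library values, which kept 0.27 of the authors' log2 fold change for Rhox5 and 0.46 for Mro. An order on the authors' scale was not computed and may differ.

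Differences between members within a library do not depend on a scaling factor that all genes of the library share. The log2 value of Wt1 minus that of Sox9 was 0.80, 0.58 and 0.47 in wild-type replicates 1 to 3. It was -0.26, -0.07 and -0.33 in UXT KO replicates 1 to 3, so Wt1 was lower relative to Sox9 in each knockout library than in any wild-type library. The value of Wt1 minus that of Aard was 1.74, 2.03 and 1.65 in wild-type and 2.14, 1.93 and 1.70 in UXT KO replicates 1 to 3. These ranges overlapped, so the relative level of Wt1 and Aard did not separate the groups. The value of Mro minus that of Aard went from a mean of -3.80 ± 0.35 in wild-type to -1.80 ± 0.11 in knockout cells (SD, n = 3 each), the widest shift among the pairs of members.

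Of 33 nuclear regulators of Sertoli cells, 12 were in the table, 8 of them called lower and 4 higher, beside 67.5% lower and 32.1% higher over the whole table. The median log2 fold change of the 12 in the authors' deposited table was -0.88, as was that of all 3257 genes. These 12 include the members Wt1, Sox9, Rhox5 and Mro, and the median over the other 8 was -0.81. After quantile normalization 4 of the 12 were called lower and 4 higher, and with median centring 2 lower, Wt1 and Sox9, and 4 higher. Over all 3257 genes, quantile normalization gave 1143 lower and 1049 higher calls, and median centring 1024 and 1116. Gata1, a zinc finger factor of Sertoli and red blood cells, was listed with a fall of 6.04-fold in the authors' deposited table, larger than that of Wt1. Its level was 4.73, 4.98 and 4.89 in wild-type and 4.43, 4.48 and 4.46 in UXT KO replicates 1 to 3 (log2). Only 7.4% of the table had a lower mean than Gata1, and its limma difference was -0.41, against -1.40 for Wt1. Gata1 was called lower after quantile normalization (-0.19) but not with median centring (-0.11). Alas2, the haem synthesis gene of red blood cells, was 13.3-fold lower in the authors' deposited table, and its part in the Gata1 result was not tested. Dmrt1, a DM-domain factor that keeps male fate in the postnatal testis, was listed with a fall of 2.86-fold in the authors' deposited table. Its wild-type values of 4.91, 5.51 and 4.998 lay above the knockout values of 4.66, 4.79 and 4.80 (log2), but Dmrt1 was called under neither other scaling.

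Besides Mro, the regulators that were higher were Six4, Etv4 and Sox4, named after their values were seen, with rises of 1.91-fold, 1.91-fold and 2.03-fold listed in the authors' deposited table. The authors' deposited table listed Hopx and Rb1, also named after their values were seen, as 1.88-fold and 1.63-fold lower. SIX4 is a homeodomain factor that acts ahead of SRY in the gonad, and SOX4 belongs to the same protein family as SOX9. Gata4, Nr5a1, Sox8, Nr0b1 and the rest of the list were not analysed here, and nothing can be said of their level.

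**Figure D3:**
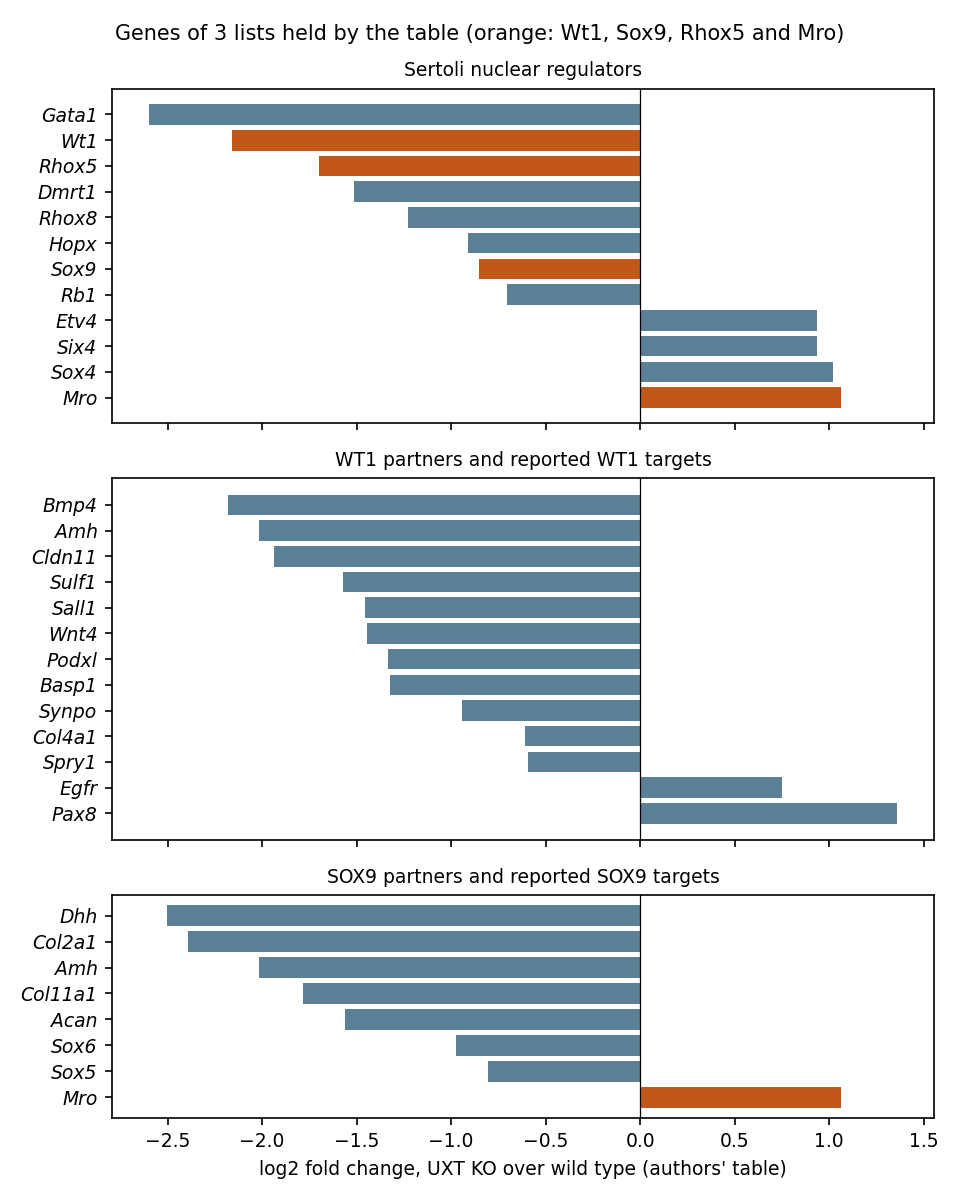
Bars give the log2 fold change of each gene (knockout over wild type) in the authors' deposited table, for the genes of 3 lists that the table held. Of the members, Wt1, Sox9 and Rhox5 point to lower and Mro to higher levels, and most bars of the WT1 and SOX9 lists lie below 0 (11 of 13 and 7 of 8).

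Of 26 partners and reported targets of WT1, 13 were in the table, with 11 lower and 2 higher and a median log2 fold change of -1.33 in the authors' deposited table, beside -0.88 for all genes. Under quantile normalization 8 of the 13 were called lower and with median centring 7, beside 1143 and 1024 of all 3257 genes. In both, 2 of the 13 were called higher. The lower genes included Bmp4, a growth factor, at 4.53-fold, Amh, the anti-Müllerian hormone of Sertoli cells, at 4.04-fold, and the tight junction gene Cldn11 at 3.83-fold in the authors' deposited table. Amh was near the bottom of the scale, with 6.32% of the table at a lower mean, and its limma difference was only -0.33. Sulf1, a heparan sulfatase, was 2.97-fold lower in the authors' deposited table. Bmp4 varied among wild-type libraries, with 9.37, 10.52 and 10.02 in replicates 1 to 3, against 8.41, 8.54 and 8.50 in UXT KO replicates 1 to 3 (log2). The higher genes were Pax8 and Egfr, named after their values were seen, with rises of 2.56-fold and 1.68-fold listed in the authors' deposited table. Whether WT1 binds or controls any of them in these cells was not measured.

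Of 24 partners and reported targets of SOX9, 8 were in the table. Of these 7 were lower and 1, Mro, higher, beside 67.5% lower and 32.1% higher over the whole table. The median log2 fold change of the 8 was -1.67 in the authors' deposited table, and -1.78 over the 7 without Mro. Under each of the other scalings 3 of the 8 were called lower, beside 1143 and 1024 of all 3257 genes, and 1 was called higher. The limma difference of Sox6 turned from -0.28 to 0.09 after quantile normalization and 0.01 with median centring. Dhh, the hedgehog ligand that Sertoli cells send to Leydig and myoid cells, was 5.67-fold lower in the authors' deposited table. Its level was 10.63, 10.80 and 10.79 in wild-type and 8.48, 9.03 and 9.17 in UXT KO replicates 1 to 3 (log2). UXT KO replicate 1 was thus the lowest knockout library for Dhh, as it was for Wt1, Rhox5, Mro and Aard. The median of that library over the table was 8.82, against 8.88 and 8.91 in UXT KO replicates 2 and 3. The collagen genes Col2a1 and Col11a1, known as SOX9 targets in cartilage, were 5.25-fold and 3.45-fold lower in the authors' deposited table. Col2a1 was near the bottom of the scale, with 4.51, 5.05 and 5.26 in wild-type and 4.46, 4.43 and 4.44 in UXT KO replicates 1 to 3 (log2). Neither Col2a1 nor Amh was called lower under the other scalings.

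All 5 analysed genes of 14 androgen-responsive Sertoli genes were called lower, Rhox5 among them, with a median log2 fold change of -1.33 in the authors' deposited table. Of all analysed genes, 67.5% were called lower, and the median log2 fold over all of them in the authors' deposited table was -0.88. Under each of the other scalings 3 of the 5 were called lower, beside 1143 and 1024 of all 3257 genes. Gpd1, the cytosolic glycerol-3-phosphate dehydrogenase, was listed with the largest fall, 6.56-fold, ahead of Rhox5 at 3.25-fold, in the authors' deposited table. Tubb3, a neuronal-type beta tubulin, followed at 2.52-fold, the defensin gene Defb36 at 2.17-fold and the phospholipid transfer gene Pltp at 2.16-fold in the authors' deposited table. Tubb3 was 12.58, 13.26 and 13.05 in wild-type and 12.08, 12.25 and 11.95 in UXT KO replicates 1 to 3 (log2).

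The label of the cells was set against marker lists, but the table holds only genes selected as differing, so the presence or absence of a marker in it does not show which cells the cultures held. Of 21 Sertoli markers, 18 were in the table, 17 lower and 1, Inhba, higher, beside 67.5% lower and 32.1% higher over the whole table. The 18 include the members Wt1, Sox9, Rhox5 and Aard, all of them lower. Under each of the other scalings 13 of the 18 were called lower, beside 1143 and 1024 of all 3257 genes. Of the 18, 1 was called higher after quantile normalization and 2 with median centring. The second was Cst9, a cystatin gene named after its values were seen, whose limma difference turned from -0.11 to 0.19 with that centring, which raised the differences of the table's genes by 0.30. The authors' deposited table listed the largest falls for Shbg, the androgen-binding protein gene, at 17.2-fold, Cst12 at 7.94-fold, the transferrin gene Trf at 6.33-fold and Dhh at 5.67-fold. Inhba, a subunit of inhibin and activin named after its value was seen, was 1.75-fold higher in the authors' deposited table. The log2 of the summed level of the 18 markers, members included, ran from 18.14 to 18.41 in wild-type and from 17.54 to 17.67 in knockout libraries. Such a sum weighs abundant genes most. Inhba and the lower genes Clu and Ctsl, named after their values were seen, had the highest averages of the 18 in the authors' deposited table. Among the 14 that are not members, the median deviation from the wild-type mean was -1.15, -0.84 and -0.86 in UXT KO replicates 1 to 3. Over the same libraries Wt1 deviated by -1.52, -1.33 and -1.34, Aard by -1.85, -1.45 and -1.23, and Sox9 by -0.63, -0.64 and -0.39. Rhox5 deviated by -0.55, -0.47 and -0.34, and Mro by 0.18, 0.63 and 0.64. The sizes cannot be compared between genes, since the ratio of these values to the authors' fold changes differed between them. In RNA from whole cultures, fewer Sertoli cells and less of these transcripts per Sertoli cell cannot be told apart.

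Markers of other testis cells also differed, in both directions, beside 67.5% of genes called lower and 32.1% higher over the whole table. Of 9 endothelial markers 8 were in the table and all 8 were lower. Their log2 summed level was 12.69 to 12.82 in wild-type and 11.69 to 12.01 in knockout libraries. This sum too weighs abundant genes most. Cdh5, named after its values were seen, had the highest average of the 8, 11.84, and was 1.73-fold lower in the authors' deposited table. The largest of these falls in the authors' deposited table were those of Vwf (51.8-fold), Tie1 (36.7-fold), Cldn5 (26.5-fold) and Esam (21.1-fold). All 8 of 8 macrophage markers were lower, at 14.60 to 14.96 and 13.13 to 13.37, led in the authors' deposited table by Fcgr1 (8.86-fold), C1qa (7.94-fold), Cd14 (6.35-fold) and Lyz2 (5.54-fold). All 6 of 6 peritubular myoid markers were lower, at 18.97 to 19.29 and 18.49 to 18.69. The authors' deposited table ordered them as Myh11 (4.26-fold), Cnn1 (3.13-fold), Des (3.04-fold), Actg2 (2.72-fold), Acta2 (2.01-fold) and Tagln (1.51-fold). The 3 analysed Leydig markers of 7, Hsd3b1, Star and Cyp11a1, were higher, as Mro was, at 15.15 to 15.35 in wild-type and 15.71 to 16.04 in knockout libraries. Their rises in the authors' deposited table were 5.003-fold, 2.01-fold and 1.61-fold. Under quantile normalization 7 of the 8 endothelial and 4 of the 6 myoid markers were called lower, and with median centring 6 and 5. All 8 macrophage and all 3 Leydig markers kept their calls. Of all 3257 genes, these scalings called 1143 and 1024 lower and 1049 and 1116 higher. The part of these markers in the differences of Wt1, Sox9, Rhox5, Aard and Mro was not tested.

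The genes whose pattern over the 6 libraries was most like that of each member were found by the distance between their deviations from the wild-type mean on the log2 scale. Nearest to Wt1 were Chst1, a sulfotransferase, at a distance of 0.0998, Parm1, a mucin-like gene named for its androgen regulation in prostate, at 0.124, and Plekhb1 at 0.128, against a median of 1.76 over the table. Nearest to Sox9 were Jade3 at 0.0639, Sh3bp5 at 0.117 and the ADP-ribosyltransferase gene Parp10 at 0.117 (median 0.748). Nearest to Rhox5 were Dlk2 at 0.0817, Oasl1 at 0.0874 and Rtn4rl1 at 0.0998 (median 0.73).

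The matches to Mro were more distant than those to Wt1, Sox9 and Rhox5. Nearest to Aard were Stxbp6 at 0.128, Lpcat2 at 0.211 and the tetraspanin gene Tspan15 at 0.278 (median 2.0). Nearest to Mro were Hspg2, which encodes perlecan, at 0.243, the dynein heavy chain gene Dync1h1 at 0.312 and the ribosomal protein gene Rpl12 at 0.314 (median 1.63). Ribosomal protein genes have near-identical pseudogenes, so the value of Rpl12 is uncertain. Parm1 was listed 4.32-fold lower in the authors' deposited table, beside 4.47-fold for Wt1, and its level was 12.32, 12.48 and 12.31 in wild-type and 10.92, 11.03 and 11.08 in UXT KO replicates 1 to 3 (log2). Genes near in pattern differed in fold: Plekhb1 was 7.35-fold lower in the authors' deposited table.

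**Figure D4:**
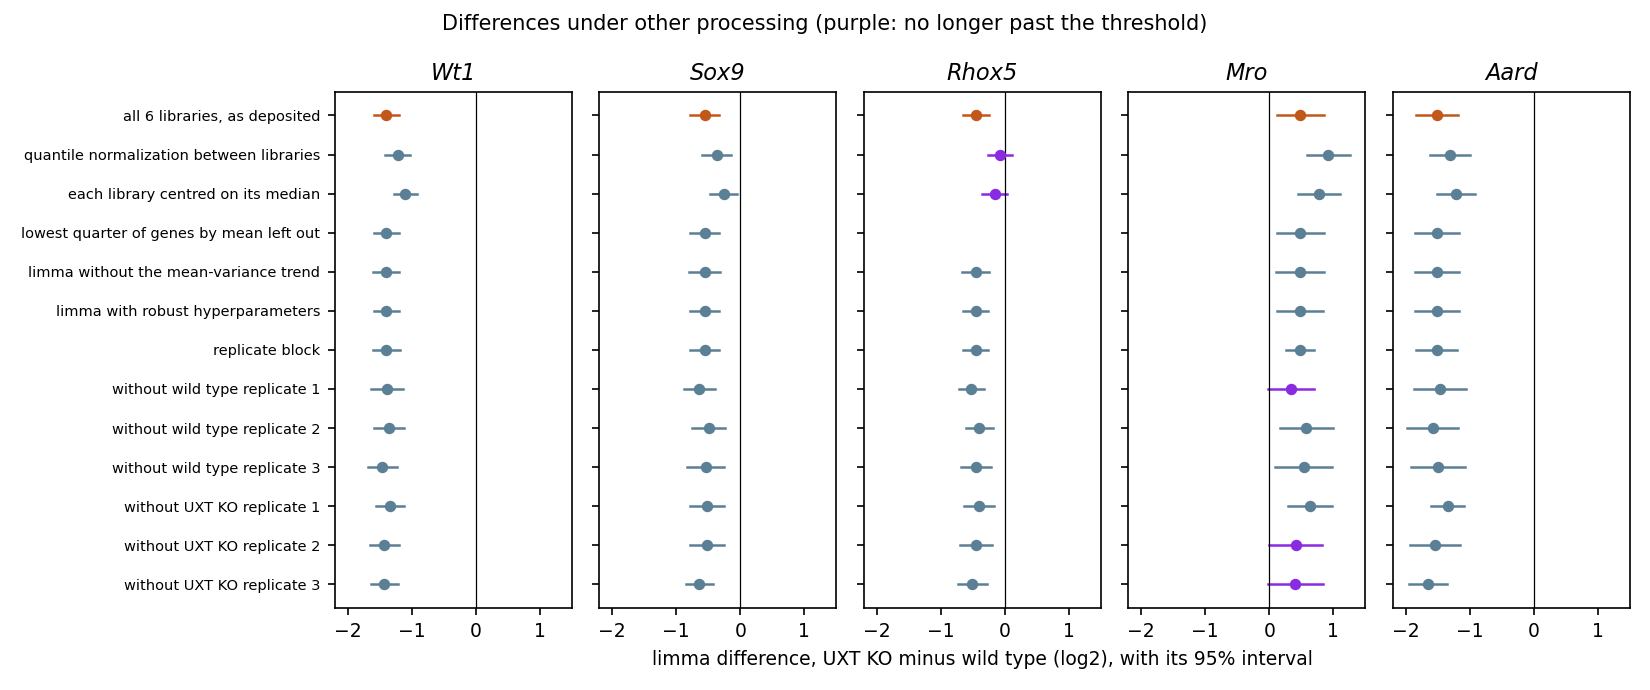
Limma difference of each member (knockout minus wild type, log2) with its 95% interval, for all 6 libraries as deposited and for each alternative processing on the vertical axis. Wt1 and Aard stay between -1.65 and -1.10, while Rhox5 loses the threshold under both other scalings and Mro when any of 3 single libraries is left out; Rhox5 has no point where the genes of the lowest mean levels were left out, because it is one of them.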

How the data were processed

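The authors used FastQC, STAR, DESeq2 and the mm10 build, per the submitters' processing notes, which give no versions. Neither the read counter nor the annotation is given in the sources used here. In all, the authors deposited 1 table of 3261 rows with a log2 value per library, whose normalization and transformation the sources used here do not describe. Per the file headers it also held a signed fold change, which is the deposited fold score, a log2 fold change, and p-values, which were not printed. Depth was unknown. Efna1 and Hmga1 stood on 2 rows each, so 4 rows were left out.

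Limma 3.58.1 (R 4.3.3) with a mean-variance trend was fitted to the log2 values of all 3257 genes in 6 libraries, without covariate, and tested on simulated data. Groups and replicate numbers came from the sample titles. The members and the 15 lists were chosen with earlier results of these data known. The rule for named genes took the members, the 4 genes of each list with the largest authors' fold (all where the table held up to 6), the 3 genes nearest in pattern to each member, and analysed genes among the 5 on each side. No set test was run, proteins were not used here, and 1 planned motif is not reported here. Alternatives covered scaling, low values, the prior variance, a replicate block, a stricter threshold and leaving out each library.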

Additional observations from a re-analysis of the deposited data

How the results depend on the processing

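Wt1, Sox9 and Aard kept their direction and their side of the threshold under all 12 alternatives run. Rhox5 did so under 9 of 11 and Mro under 9 of 12. Leaving out low genes, the prior variance settings and the replicate block could change only the call, since they leave each difference as it is. The difference of Rhox5 was -0.072 after quantile normalization and -0.16 with each library centred on its median, neither past the threshold. Those scalings raised the differences of the table's genes by a median of 0.26 and 0.30. Both were computed on genes selected as differing, 2210 listed lower and 1047 higher, so they can take away part of a real fall. Genes called lower went from 2200 to 1143 and 1024, and genes called higher from 1044 to 1049 and 1116, so that 52.1% and 47.9% of calls were lower in place of 67.8%. Leaving out 1 library at a time gave 0.34 to 0.64 for Mro, where 3 of 6 runs did not pass. Same-numbered libraries did not pair (correlation of their deviations over genes 0.18, -0.07 and -0.004 for numbers 1, 2 and 3). The replicate block cannot change the members' differences, since both groups hold the same replicate numbers. With it 1045 genes were higher and 2207 lower, and no call of a member changed. An adjusted p under 0.01 left 943 higher and 1938 lower genes.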

Other observations

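Genes of the ovarian pathway, which opposes SOX9 in the developing gonad, were mostly not analysed here. Of 15 such genes, 2 were in the table and both were lower, beside 67.5% of the whole table. Wnt4, a signal of ovarian development, was 8.68, 8.88 and 8.53 in wild-type and 7.93, 7.96 and 7.96 in UXT KO replicates 1 to 3 (log2), a fall of 2.72-fold in the authors' deposited table. Bmp2 was 7.08, 7.13 and 7.06 in wild-type and 6.02, 6.01 and 6.21 in UXT KO replicates 1 to 3 (log2), a fall of 6.95-fold in the authors' deposited table. Foxl2, Rspo1, Fst and the rest of that list were not analysed here.

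Of 9 markers of immature Sertoli cells, 2 were in the table, Amh lower (under neither other scaling) and the inhibitor of differentiation gene Id1 higher, by 1.72-fold in the authors' deposited table. Id1 was 10.51, 10.79 and 10.73 in wild-type and 11.06, 10.92 and 11.52 in UXT KO replicates 1 to 3 (log2). Both analysed germ cell markers of 9, Kit and Sycp3, were listed as 4.19-fold and 2.73-fold lower in the authors' deposited table, but the limma difference of Sycp3 turned from -0.19 to 0.01 after quantile normalization and 0.11 with median centring. Of 6 interstitial fibroblast markers, Col1a1 and Dcn were in the table, listed as 2.48-fold and 1.81-fold lower by the authors' deposited table. Alas2 was the only analysed red blood cell marker of 3.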
